A study of Mus musculus with 2 samples.

Results

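ATF4 pathway and serine synthesis genes were compared between 2 pools of mouse mammary epithelial cells, one lacking Cuzd1 and one heterozygous for it. The 10 genes are Atf4, Atf5, Ddit3, Chac1, Trib3, Asns, Sesn2, Psat1, Phgdh and Psph, chosen by gene name out of 18193 genes named on the array. They are read by the 20 probe sets whose only gene symbol is one of these names. All 10 genes were above background on both arrays, as were 19 of the 20 probe sets.

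Cuzd1, named for its CUB and zona pellucida-like domains, was deleted by homologous recombination in embryonic stem cells, and the line was backcrossed to C57BL/6. The heterozygous group was littermates that carry 1 deleted allele, so no wild-type array enters the comparison. On day 18 of pregnancy the inguinal glands of both groups were removed and digested with hyaluronidase and collagenase, and no sort of the cells is recorded. Each genotype was read on 1 array from a pool of 5 mice, so every difference below is a difference between 2 pools, with no replicate error and no test. Ratios are null over heterozygous on a log2 scale, and a fold of 2 served as a rule of size for counts of genes, not as a test.

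ATF4 is a transcription factor made when the translation factor eIF2 is phosphorylated by kinases that sense unfolded protein in the endoplasmic reticulum, lack of amino acids, viral RNA or lack of heme. Its protein is controlled mainly through translation, so the Atf4 transcript need not follow its activity. ATF4 turns on genes that make, import and charge amino acids, among them the enzymes that make serine from a glycolytic intermediate, and also the factors that later dampen the response. The secretory cells of the mammary gland at the end of pregnancy make large amounts of milk protein, which draws on both amino acids and the folding capacity of the endoplasmic reticulum.

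ATF4 binds with C/EBP partners to a C/EBP-ATF response element, and the members' promoters are shown where the core letters of that element, TGATGNAA on either strand, were found. All 10 members had at least 1 window in the RefSeq promoter table (GRCm38.p6), 12 windows in all, each with 250 bases before and 50 bases after an annotated start. Before the start, 2 members held the letters, Chac1 and Asns, against 3.91% of the 27025 genes in the table. Over the whole window of 300 bases Trib3 made a further member, against 4.51% of genes, and 7 members had no match. The Chac1 sequence is chr2:119350992-119351241 on the plus strand, with the match from base -193 to -186 and in the opposite orientation. The Asns sequence is chr6:7693210-7693459 on the minus strand, with the match from -23 to -16 in the gene's own orientation. For Trib3 only the site is shown, chr2:152344028-152344057 on the minus strand, with the match in the opposite orientation from base 15 to 22 after the start. The match is in capitals. A match is a description of the letters and not a bound site.
Chac1: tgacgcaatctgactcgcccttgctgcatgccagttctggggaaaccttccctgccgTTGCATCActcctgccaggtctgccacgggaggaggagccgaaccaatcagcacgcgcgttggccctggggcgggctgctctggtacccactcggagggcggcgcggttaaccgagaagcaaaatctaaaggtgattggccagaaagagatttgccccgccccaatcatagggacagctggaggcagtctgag
Asns: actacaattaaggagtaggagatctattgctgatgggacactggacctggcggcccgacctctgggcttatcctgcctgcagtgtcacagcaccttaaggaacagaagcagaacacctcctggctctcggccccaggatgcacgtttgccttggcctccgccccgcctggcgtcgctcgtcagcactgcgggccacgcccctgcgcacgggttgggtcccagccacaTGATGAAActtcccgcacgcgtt
Trib3: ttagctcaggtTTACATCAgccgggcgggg

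Chac1 was the 1 member at least 2-fold apart, and it was lower in the null pool. It encodes a gamma-glutamyl cyclotransferase that breaks down glutathione and is a target of ATF4. Its probe set read 127 intensity units in heterozygous and 49.6 units in null cells, 2.55-fold lower, a log2 ratio of -1.35. The null signal was still above the floor of that array, 32.5 units, below which signals were treated as background (34.2 units on the heterozygous array). Of the 594 genes of similar signal, 9 including Chac1 had a ratio as low, and of all 11893 measured genes 46 did. The robust SD of the ratios of those 594 genes, a spread taken from the median absolute deviation that holds real differences as well as noise, was 0.42. Over all measured genes 1.03% were at least 2-fold lower, beside 1 of the 10 members. At least 2-fold higher were 0 members and 1.12% of all measured genes. In bulk RNA of this kind, fewer cells of a type and less RNA per cell cannot be told apart.

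The members lay on both sides of 0. The log2 ratio was below 0 for 6 members and above 0 for 4, with a median of -0.20, while all measured genes had a median of 0.03, quartiles of -0.18 and 0.23, and 46.0% of genes below 0. Rescaled to the hybridization controls described further on, 4 members were below 0, the median of the members was 0.03 and that of all measured genes 0.26. At a smaller fold of 1.5, Chac1 was the 1 member lower and Psph the 1 member higher, beside 4.93% and 5.83% of all measured genes.

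**Figure D1:**
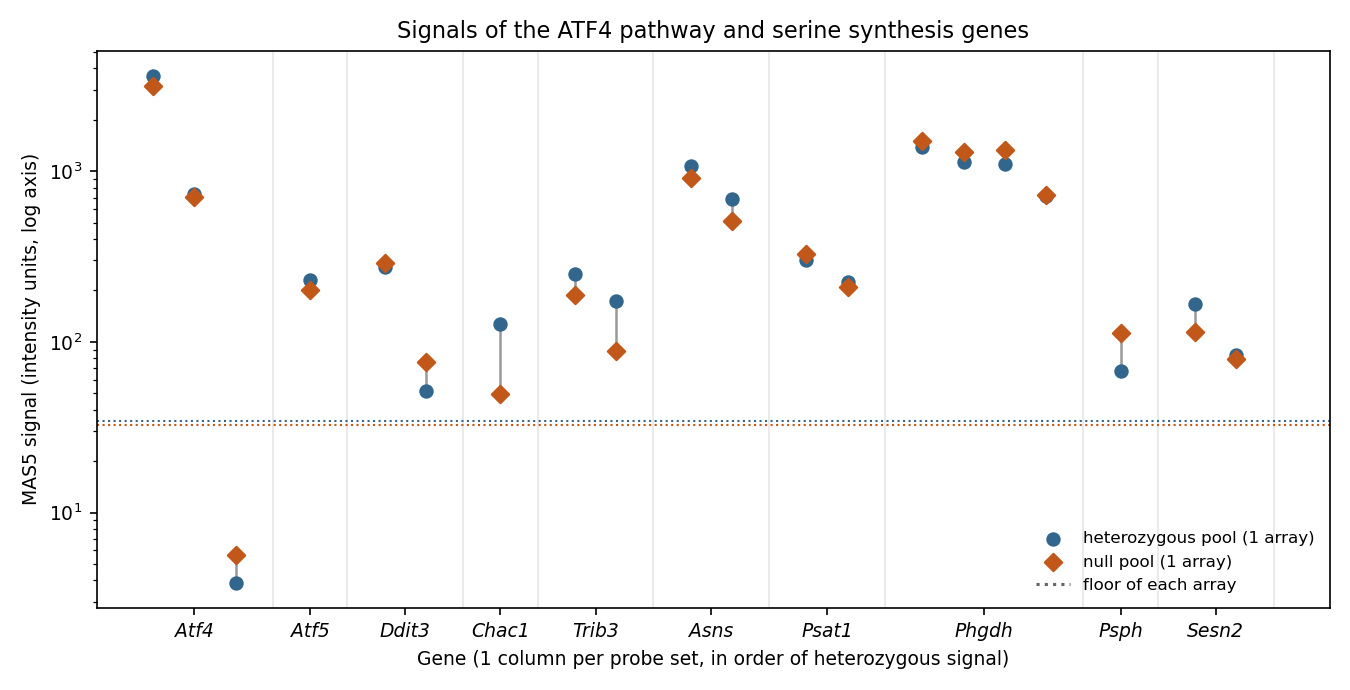
MAS5 signal in intensity units on a log axis for each of the 20 probe sets, with 1 circle for the heterozygous pool and 1 diamond for the null pool, joined by a line, and the floor of each array dotted. The widest gaps above the floors are at Chac1, 127 against 49.6 units, and at the dimmer Trib3 probe set, 174 against 89.0 units, while 1 Atf4 probe set is far below both floors.

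The transcription factors of the pathway differed little between the pools at their brightest probe sets. Atf4 read 3610 units in heterozygous and 3148 units in null cells at its brightest probe set, a log2 ratio of -0.20. A second probe set read 738 and 701 units (-0.07), and a further one, at 3.89 and 5.67 units, was below both floors and gives no ratio. Among 595 genes of similar signal 130 were as low as Atf4, and the robust SD was 0.19. The Atf4 transcript therefore lay within the spread of genes as bright as itself.

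Atf5, a related factor of the same family whose translation is also controlled by eIF2, read 232 and 201 units, a log2 ratio of -0.20. This was 1 of the 3 members with a single probe set, beside Chac1 and Psph. Rescaling to the hybridization controls turned Atf4 and Atf5 to 0.03 and 0.02, so no direction is given for either.

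Ddit3, which encodes CHOP, the factor linked to cell death under lasting stress of the endoplasmic reticulum, was not lower. It read 273 and 288 units, a log2 ratio of 0.08, and 51.3 and 76.2 units at its dimmer probe set, a ratio of 0.57. These readings differ by 0.49, and 17.0% of genes with at least 2 probe sets above both floors had a difference as large. Neither probe set of Ddit3 was below 0 in null cells, in contrast to both probe sets of Trib3, which CHOP and ATF4 induce.

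Trib3, a pseudokinase that damps ATF4 and AKT signalling, was lower at both of its probe sets. The brighter one read 251 and 187 units, 1.34-fold lower, a log2 ratio of -0.42. The dimmer one read 174 and 89.0 units, 1.96-fold lower, a ratio of -0.97, just short of the 2-fold line. These probe sets differ by 0.55, and 13.4% of the 4722 genes with at least 2 probe sets above both floors had a difference as large between their brightest ones. The brighter probe set carries the suffix that marks probes shared with similar sequences, so the size of the difference in Trib3 is uncertain. On the hybridization-control scale its brighter probe set had -0.19.

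Sesn2, a stress-induced sestrin that restrains mTORC1 when leucine is short, read 168 and 115 units, 1.46-fold lower, a log2 ratio of -0.55. Among 595 genes of similar signal 31 were as low, with a robust SD of 0.30. Its other probe set read 83.9 and 78.9 units, a ratio of -0.09. On the hybridization-control scale the brighter probe set of Sesn2 had -0.32. Both ratios were below 0 as deposited, but their sizes disagreed by 0.46, and 19.1% of genes had brightest probe sets at least that far apart.

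Asns, the enzyme that makes asparagine from aspartate and glutamine, was slightly lower at both probe sets. It read 1069 and 911 units, a log2 ratio of -0.23, and 686 and 509 units, a ratio of -0.43, at the other. The first of these was at -0.00 after rescaling to the hybridization controls, so its direction rests on the scaling. The robust SD of genes as bright as Asns was 0.22.

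**Figure D2:**
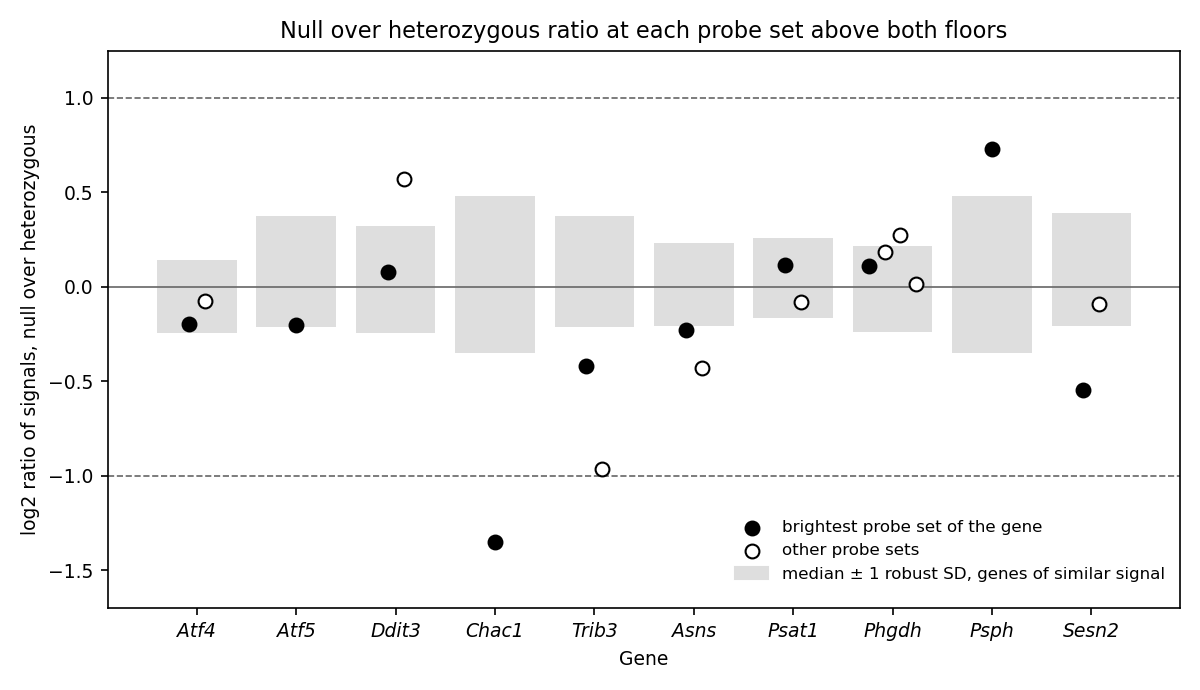
Log2 ratio of null over heterozygous signal at each of the 19 probe sets above both floors, with filled points for the brightest probe set of a gene, grey bands for the median ± 1 robust SD of genes of similar signal, and dashed lines at 2-fold. Chac1 at -1.35 is the 1 point beyond a dashed line. Both Trib3 points, both Asns points and the brighter Sesn2 point (-0.55) also lie below their bands. Psph at 0.73, the dimmer Ddit3 point (0.57) and a Phgdh point (0.28) lie above theirs. Each band belongs to the signal of the gene's brightest probe set.

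The enzymes of serine synthesis were not lower in the null pool at their brightest probe sets, under any of the scalings tried. Phgdh, which carries out the first step from 3-phosphoglycerate, read 1390 and 1500 units, a log2 ratio of 0.11. Its other probe sets read 1134 and 1288 units (0.18), 1100 and 1332 units (0.28), and 717 and 725 units (0.01). All 4 were above 0 as deposited, and all carry the suffix for probes shared with similar sequences. A further 2 probe sets, each annotated to Phgdh and a predicted gene and so outside the members, had ratios of 0.35 and 0.14.

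Psat1, the aminotransferase of the second step, had ratios on both sides of 0. It read 302 and 327 units, a log2 ratio of 0.12, and 223 and 211 units, a ratio of -0.08, at its other probe set. These values of Psat1 lie 0.20 apart, about the median gap between probe sets of a gene, which was also 0.20.

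Psph, the phosphatase that releases serine in the last step, had the highest ratio of the 10 members. It read 67.8 and 112 units, 1.66-fold higher, a log2 ratio of 0.73. Among the 594 genes of similar signal 43 were as high, with a robust SD of 0.42, the same bin of dim genes as Chac1. Psph was below 2-fold under each scaling, with 0.72 after quantile normalization, 0.70 with equal medians and 0.96 on the hybridization-control scale. Its single probe set leaves no second reading of the gene.

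**Figure D3:**
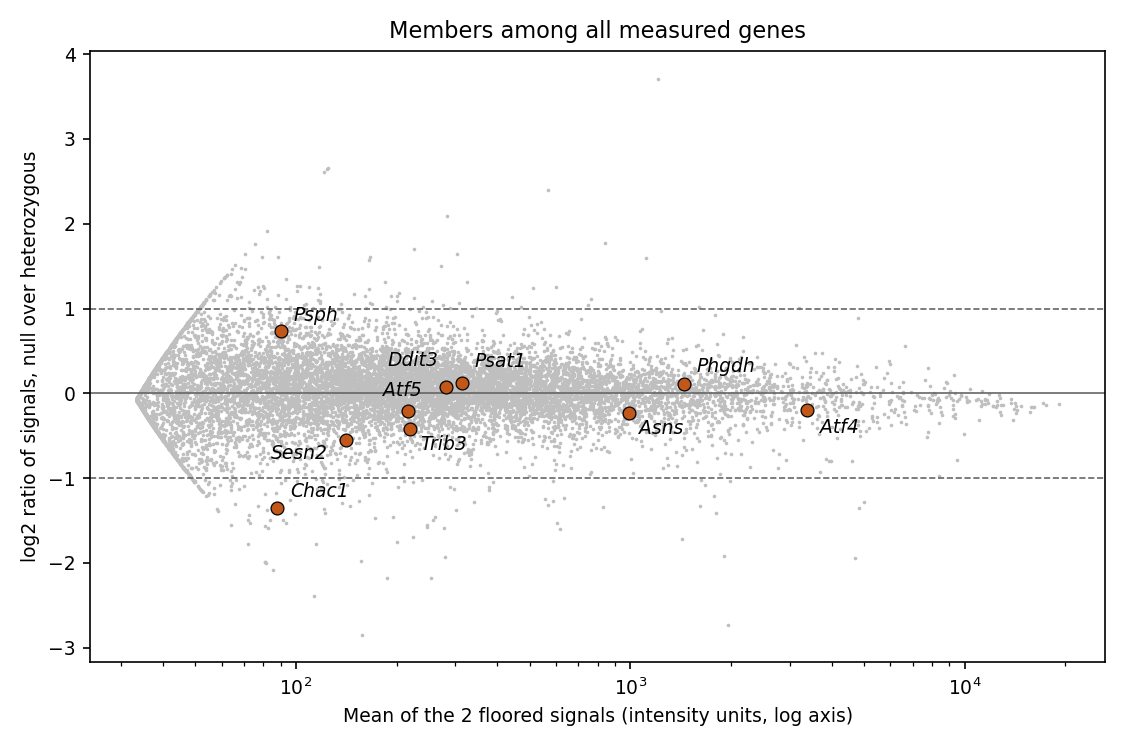
Log2 ratio of null over heterozygous signal against the mean of the 2 floored signals, on a log axis, for the 11893 measured genes in grey and the 10 members in colour, each at its brightest probe set, with dashed lines at 2-fold. Chac1 and Psph lie among the dim genes, where the grey cloud is wider than among bright genes. Chac1 lies toward the lower edge of the cloud, where 9 of 594 genes of similar signal, including itself, were as low. The other members, Psph among them, lie inside the cloud.

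ATF4 has many further targets, and a list of 26 of them that are no members was taken from general knowledge. Probe sets named 24, and 22 were measured, with 13 below 0, 9 above 0 and a median log2 ratio of -0.03, or 0.20 on the hybridization-control scale. No target in this list was 2-fold apart in either direction at its brightest probe set. Vldlr had 0.26 there, but 1.02 at a dimmer probe set that read 37.9 and 76.9 units. The list is partial, since Mthfd2, also a target, was placed with serine use below, as was Cth, 2.89-fold lower. Herpud1, 2.06-fold lower as deposited, was placed with the IRE1, XBP1 and ATF6 arm. The brightest of the listed targets was Atf3, a stress-induced factor, at 5174 and 6723 units (0.38). Next came Cebpb, a C/EBP partner of ATF4, at 3222 and 3512 units (0.12).

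Individual targets differed more than the median of that list. Ddit4, which restrains mTORC1, read 1782 and 1079 units (-0.72), and Nupr1, a stress-induced chromatin protein, read 1875 and 1190 units (-0.66), with -0.73 at its other probe set. Jdp2, a bZIP repressor, read 440 and 707 units (0.68). Stc2, a secreted glycoprotein, had -0.56 at its brightest probe set but 0.45 and 0.54 at its others. Vldlr, Ddit4, Nupr1, Jdp2 and Stc2 were named after their values were seen.

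The cytosolic aminoacyl-tRNA synthetases, which load amino acids onto tRNA and include many ATF4 targets, had a median near 0 as deposited. Of 19 measured, 9 were below and 10 above 0, with a median log2 ratio of 0.02 (0.25 on the hybridization-control scale and -0.01 with equal medians) and a range of -0.28 to 0.54. The brightest were Qars, for glutamine, at 2815 and 3790 units (0.43), and Nars, for asparagine, at 2128 and 2156 units (0.02). Other probe sets of Qars had 0.16, -0.02 and -0.14, and the other probe set of Nars had -0.15. No synthetase was 2-fold apart.

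Upstream of ATF4, a list of the eIF2 kinases, eIF2 phosphatase subunits and the regulators Impact and Nck1 had a median of -0.03 over 8 measured genes, 4 on each side of 0, or 0.20 on the hybridization-control scale. Ppp1r15a, the stress-induced subunit that reverses eIF2 phosphorylation and is itself an ATF4 target, read 1552 and 1479 units (-0.07), and Ppp1r15b, its constitutive relative, read 1172 and 933 units (-0.33). Eif2ak3, which encodes the kinase PERK of the endoplasmic reticulum, had the lowest ratio of this list at 930 and 617 units (-0.59), named after its value was seen. Again no gene was 2-fold apart.

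Downstream of serine, genes of serine use and one-carbon metabolism had a median log2 ratio of -0.11 over 16 measured genes, 9 below and 7 above 0, so its direction rests on the processing: it was 0.12 on the hybridization-control scale and 0.01 over 9 genes with the floor at the 75th percentile. Cth, cystathionine gamma-lyase, which makes cysteine in the transsulfuration pathway, was the 1 gene at least 2-fold apart. It read 139 and 48.2 units, 2.89-fold lower, a log2 ratio of -1.53 (-1.30 on the hybridization-control scale), and 26 of all measured genes were as low. Gldc, of the glycine cleavage system, read 1002 and 528 units (-0.93), and Mthfd2, a mitochondrial folate enzyme and ATF4 target, read 87.8 and 52.9 units (-0.73), with -0.66 at its other probe set. Shmt2, which turns serine into glycine in mitochondria, had 0.06. Gldc, Mthfd2 and Shmt2 were named after their values were seen.

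The arm of the unfolded protein response that runs through IRE1, XBP1 and ATF6 was set beside the ATF4 arm because stress of the endoplasmic reticulum starts both. All 20 genes were measured. At the brightest probe set of each, 14 were below and 6 above 0, with a median of -0.18, and 2 were at least 2-fold lower. Dnajb9, a co-chaperone of the endoplasmic reticulum, read 2276 and 1079 units (2.11-fold lower), and Herpud1, which acts in degradation of misfolded proteins, read 523 and 254 units (2.06-fold lower), with -0.40 at its other probe set. These 2 of 20 stand beside 1.03% of all measured genes. On the hybridization-control scale neither was 2-fold apart, with -0.85 for Dnajb9 and -0.81 for Herpud1. Pdia4, a disulfide isomerase, passed 2-fold higher on that scale, and the median of the list became 0.05. Ern1, which encodes IRE1, had 0.18 as deposited at its brightest probe set but -1.16 and 0.57 at its others. The paralogs of the members had a median of 0.06 over 9 measured genes, or 0.28 on the hybridization-control scale, with 0.38 for Atf3 and 0.06 for Sesn3. Chac2, the close relative of Chac1, read 85.5 and 43.7 units (-0.97), and Trib2, a relative of Trib3, read 135 and 215 units (0.67). Pdia4, Ern1, Chac2 and Trib2 were named after their values were seen.

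**Figure D4:**
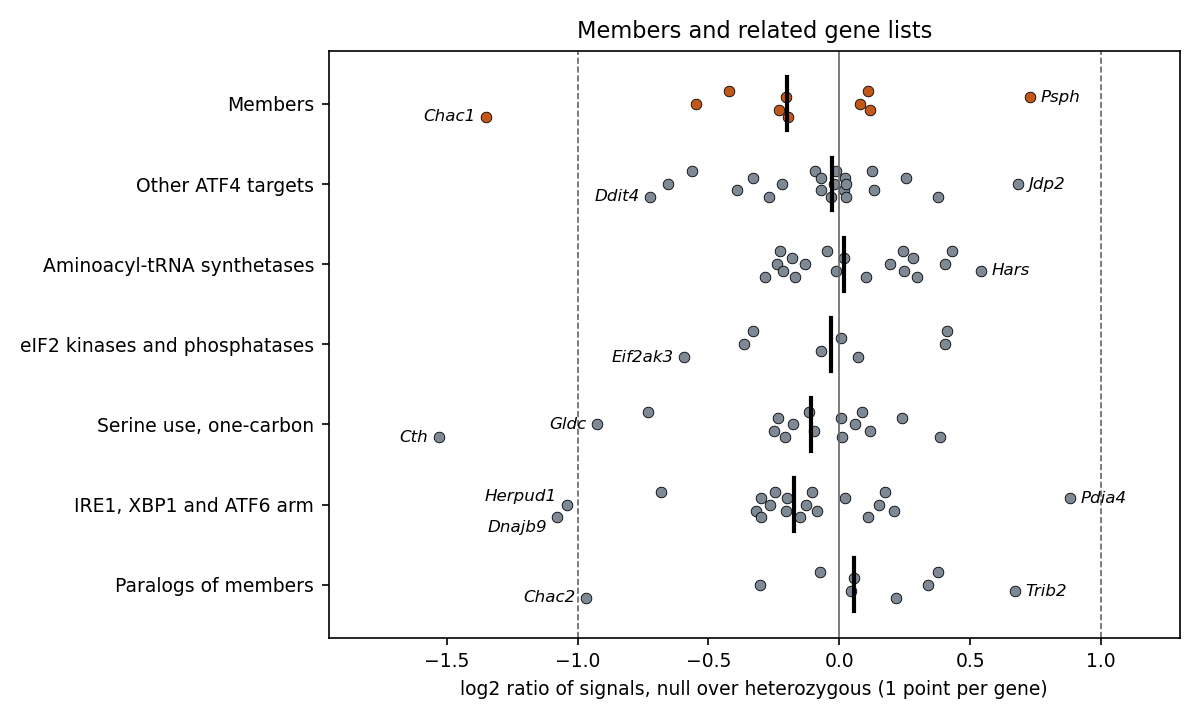
Log2 ratio of null over heterozygous signal, 1 point per measured gene, for the 10 members and the 6 related lists, with the median of each as a vertical bar and dashed lines at 2-fold. Beyond a dashed line as deposited lie Chac1, Cth, Dnajb9 and Herpud1, of which Dnajb9 and Herpud1 fall short of it on the hybridization-control scale (-0.85 and -0.81), and the medians lie between -0.20 and 0.06.

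The core letters of the response element were also counted before the start of the listed genes. They were found in 7 of 23 further ATF4 targets with a window (30.4%), in 3 of 13 synthetases (23.1%) in 0 of 17 genes of serine use, in 0 of 7 genes of the eIF2 list, in 1 of 17 genes of the IRE1, XBP1 and ATF6 arm (5.88%) and in 1 of 9 paralogs (11.1%), against 3.91% of all genes. Over all measured genes with a window, 239 held the letters, and their median log2 ratio was 0.06, against 0.03 in the 9344 without. At least 2-fold lower were 4 of the 239 (1.67%), namely Nagpa, Chac1, Herpud1 and D130037M23Rik, against 0.963% of the others. At least 2-fold higher were 2 of the 239 (0.837%), Phf11d and Dennd1a, against 1.02% of the others. On the hybridization-control scale Herpud1 and D130037M23Rik (-0.78) fell short of 2-fold, leaving 2 of the 239 lower (0.837%, against 0.418%) and 8 higher (3.35%, against 2.74%). Nagpa, whose null signal lay under its floor, D130037M23Rik, Phf11d and Dennd1a were named after their values were seen.

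The direction of small ratios rested on how the arrays were scaled. The deposited values were scaled to an equal trimmed mean of 150 units. On that scale the 9 probe sets for hybridization controls had a median log2 ratio of -0.23, with 8 below 0. The 12 probe sets for poly-A controls had a median of -0.26, with 12 below 0. Dividing out the median of the hybridization controls added 0.23 to the ratio of every member and changed the sign of 2 members, Atf4 and Atf5. Chac1 was at -1.12 after this rescaling, and at -1.35 and -1.38 with quantile normalization and equal medians, at least 2-fold lower under each scaling. Quantile normalization and equal medians changed the sign of 0 members.

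**Figure D5:**
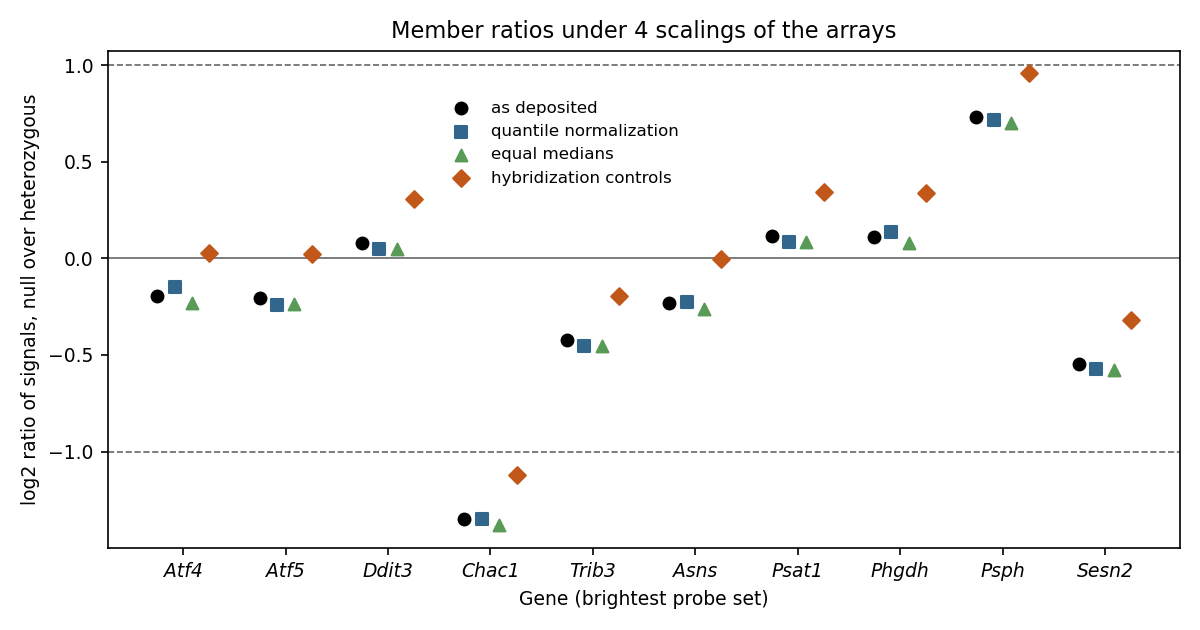
Log2 ratio of the brightest probe set of each member as deposited, after quantile normalization, with equal medians, and after rescaling to the hybridization controls. For equal medians, the null signals were divided so that genes above both floors had a median log2 ratio of 0. Chac1 stays below the dashed 2-fold line under all 4, while Atf4 and Atf5 cross 0 under the hybridization-control scale.

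Cuzd1 itself read 32.4 and 34.0 units, close to the floors on both arrays. Whether its probe set falls inside the deleted region is unknown here, so this value does not check the labels. Luminal markers were present at high signal on both arrays, 12 of 12 measured, with summed signals of 92488 and 88935 units and 5 of 12 ratios above 0. Fibroblast markers were higher in null cells for 8 of 8 genes (7290 and 10981 units summed, ratios 0.02 to 1.61), and endothelial markers for 8 of 8 (1677 and 2399 units, 0.14 to 1.32). Macrophage markers were higher for 6 of 8 (8693 and 9838 units, -0.15 to 0.50), and B and plasma cell markers for all 6 measured of 8 (391 and 2944 units, 0.32 to 3.71), while Cd79b was at or below both floors. The myoepithelial sum was 22327 and 20589 units, with 3 of 8 ratios above 0, and the adipocyte sum 7339 and 6659 units, with 1 of 5. Of the T cell markers 2 of 8 were measured, Cd3g and Cd8a, while Cd3d, Cd3e, Cd4 and Cd28 were at or below both floors. Marker values are as deposited, and the hybridization-control scale adds 0.23 to each ratio. Ratios just below 0, such as Elf5 (-0.15) and Cnn1 (-0.11), lie above 0 on it, while Lalba (-0.52) and Krt14 (-0.69) stay below. The part of these cell types in the member ratios was not tested.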

How the data were processed

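Cells of 2 groups were measured on 3' expression arrays, 1 array for each pool of 5 mice. The authors deposited a linear MAS5 signal intensity for every probe set, computed in Affymetrix Expression Console 1 according to the submitters' processing notes. No genome build is given in the sources used here. Of 45101 probe sets, 34945 non-control ones had 1 gene symbol in the platform's annotation, and none was named from the 932 with several. Current symbols came from the RefSeq mouse table (GRCm38.p6), which held the Entrez IDs of 34754.

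Each array was floored at its median over the non-control probe sets. A gene was represented by the probe set with the highest mean signal and counted as measured if above the floor on at least 1 array. Spreads came from 20 bins of signal. With 1 array per genotype no test was run, and the number of arrays limits the precision. The calculation, in Python 3.11.15 with numpy 2.4.6 and pandas 2.3.3, was tested on simulated data. The ratios planted there were in genes brighter than Chac1 and Psph, so the simulation did not cover genes as dim as these. The members and gene lists were chosen with earlier results of these data known. Named were all members and, from each list, up to 4 genes that were at least 2-fold apart, by size of ratio, otherwise its 2 brightest. Genes that no probe set names here, among them Eif2s1 and Gdf15, were not analysed here. Alternatives covered the floor, the scaling, the choice of probe set and the fold.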

Additional observations from a re-analysis of the deposited data

How the results depend on the processing

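Under the 9 alternatives that apply to all genes, the count of members at least 2-fold lower was 1 except with the floor at the 75th percentile, where it was 0 because Chac1 and Psph were below that floor on both arrays and 8 members were measured. Plain probe sets alone, whose names carry no suffix letter of any kind, read 6 members. It was also 1 at a fold of 1.5. No member was at least 2-fold higher under any of the 9. Over all genes, the counts lower and higher, 123 and 133, became 368 and 370 with no floor, 817 and 666 at a 25th-percentile floor, 39 and 24 at a 75th-percentile floor, and 59 and 349 after rescaling to the hybridization controls. Many member ratios could not move, because the brightest probe set of every member was above both floors. With no floor, a 25th-percentile floor or only genes above both floors, all member ratios equalled the main values. Plain probe sets alone also left the ratios of the 6 members they read unchanged. Of the 84 member ratios under alternatives, with these included, 79 moved by less than the robust SD at that signal. Those that moved further were Atf4 (0.03), Asns (-0.00), Psat1 (0.34) and Phgdh (0.34) after rescaling to the hybridization controls, and Sesn2 (-0.17) with the floor at the 75th percentile. Of 54 medians of related lists, 0 moved by more than 0.29, the median robust SD at the members' signals. The hybridization-control scale adds 0.23 to every ratio, so under this limit it could not count as a move. It turned the medians of the further ATF4 targets (-0.03 to 0.20) and the eIF2 list (-0.03 to 0.20) above 0. The same held for serine use (-0.11 to 0.12) and the IRE1, XBP1 and ATF6 arm (-0.18 to 0.05). Synthetases and paralogs had medians above 0 on both scales. No array could be left out with 1 per genotype. No paired analysis was possible because each genotype has 1 array. Chac1 and Psph were read close to background, where ratios varied more, with a robust SD of 0.42 against 0.19 at the signal of Atf4.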
